A study of Homo sapiens with 8 samples.

Results

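The 82 genes described here encode the nuclear subunits of the oxidative phosphorylation system, read out by RNA sequencing of the ovarian cancer line ES2. They were taken by gene symbol: the NDUFA, NDUFB, NDUFC, NDUFS and NDUFV series, SDHA to SDHD, symbols beginning with UQCR, COX4 to COX8 or ATP5, and the cytochromes CYC1 and CYCS. Of 23228 genes listed, 92 symbols matched and 82 reached a mean of 20 counts per library. These were 36 genes of complex I, 4 of complex II, 10 of complex III, cytochrome c, 13 of complex IV and 18 of complex V. NDUFA4, despite its symbol, was placed in complex IV, of which its protein is a subunit. Of the 82, 76 encode structural subunits or cytochrome c. The other 6 carry matching symbols: UQCRHL is a near-identical copy of UQCRH and ATP5EP2 a pseudogene of ATP5E, while COX4NB, COX7A2L, ATP5S and ATP5SL were counted as other proteins. COX4NB, ATP5S and ATP5SL are now named EMC8, DMAC2L and DMAC2. By symbol alone, these 6 are included in the counts and sums given for complexes III, IV and V. COX4NB and ATP5SL are among the genes counted as lower in the knockout in complexes IV and V.

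Oxidative phosphorylation takes electrons from NADH at complex I and from succinate at complex II, passes them through ubiquinone to complex III, through cytochrome c to complex IV and on to oxygen, and uses the proton gradient this builds to make ATP at complex V. Complexes I, III, IV and V join subunits encoded in the nucleus with a few encoded in mitochondrial DNA, and complex II is wholly nuclear. Nuclear subunit genes are known to share promoter elements for NRF1, for ETS-family factors such as GABP and for YY1. Tumour cells differ widely in how far they use this system beside glycolysis.

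ES2 is a human ovarian cancer cell line. The study set ES2 cells with a knockout of KDM1A, a histone demethylase that acts on lysine 4 of histone H3, against ES2 control cells, and asked how KDM1A bears on the action of oestrogen receptor beta. Cells of both kinds were kept for 48 h with LY500307, an agonist of that receptor, at 5 µM or with vehicle, and the series title names tumour suppression in ovarian cancer as the setting. The 4 groups were knockout with LY500307, knockout with vehicle, control with LY500307 and control with vehicle, with 2 libraries in each. All groups share the cell line, the medium and the time. The sources used here do not state whether the knockout line is 1 clone or a pool. The loss of KDM1A and any other difference between the knockout and control lines therefore cannot be told apart. The series text speaks of duplicate sequencing runs and not of separate cultures. The p-values measure the spread between these libraries alone, which may be technical.

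KDM1A stood at 72.0 and 71.6 CPM (counts scaled to a common library size after TMM) in knockout cells with LY500307, against 238 and 241 CPM in control cells with LY500307. With vehicle it stood at 75.6 and 77.8 CPM in knockout cells, against 220 and 219 CPM in control cells. Every knockout library thus lay below every control library, with a log2 fold change of -1.74 under LY500307 (SE 0.05, adjusted p = 5.92e-26) and -1.52 with vehicle (SE 0.05, adjusted p = 4.21e-24). A count per gene does not tell where the edit lies. Library totals ran from 24348937 to 30131097 gene counts. Haematopoietic, muscle and testis markers summed to at most 0.279, 0.213 and 0.121 CPM in any library, with 2 of 6, 3 of 5 and 2 of 3 of them without a count. The 8 carcinoma line markers, mostly keratin KRT18, summed to 159 to 183 CPM over the knockout libraries and 358 to 399 CPM over the control libraries. The 5 endothelial markers summed to 26.7 to 32.9 CPM over the knockout libraries and 83.1 to 105 CPM over the control libraries, nearly all of it CDH5. Both sums move with the knockout, and their part in the results below was not tested. In bulk RNA, fewer cells of a type and less RNA per cell cannot be told apart.

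Promoters show the elements that these genes are known to share. Windows from 250 bases before to 50 bases after the transcription start were at hand for 65 members (RefSeq, GRCh38.p14). The NRF1 letters, GCGCA, any base and GCGC, or on the other strand GCGC, any base and TGCGC, were found in 15 of the 65 windows (23.1%), against 6.98% of 27305 gene windows. ETS letters, CCGGAAG or CTTCCGG, were found in 21 (32.3%), against 12.2% of all windows. YY1 letters, AAGATGG or CCATCTT, were found in 18 (27.7%), against 7.11% of all windows. At least 1 of these was present in 42 members' windows (64.6%), against 23% of all windows. A match is a description of letters, not a binding site. The 170 bases before the start are printed for 4 genes: COX8A and UQCRQ, which fell in all 4 comparisons between pairs of groups, UQCRC1, with the largest rise in the knockout, and SDHA, with the largest fall outside complex I among members of at least 5 CPM with vehicle. Capitals mark the NRF1 letters in UQCRC1 and SDHA and the ETS letters in COX8A and UQCRQ.
COX8A, chr11:63974450-63974619, plus strand: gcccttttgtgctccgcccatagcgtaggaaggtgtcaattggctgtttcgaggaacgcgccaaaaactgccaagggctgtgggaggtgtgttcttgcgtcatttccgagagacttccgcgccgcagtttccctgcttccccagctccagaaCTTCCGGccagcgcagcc
UQCRQ, chr5:132866472-132866641, plus strand: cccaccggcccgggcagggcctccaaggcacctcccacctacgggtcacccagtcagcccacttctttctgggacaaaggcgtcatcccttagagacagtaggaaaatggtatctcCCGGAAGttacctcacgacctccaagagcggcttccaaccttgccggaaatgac
UQCRC1, chr3:48609647-48609816, minus strand: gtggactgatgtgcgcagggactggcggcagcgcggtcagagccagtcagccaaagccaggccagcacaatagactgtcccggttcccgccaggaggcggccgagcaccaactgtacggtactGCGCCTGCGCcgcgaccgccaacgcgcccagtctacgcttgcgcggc
SDHA, chr5:218150-218319, plus strand: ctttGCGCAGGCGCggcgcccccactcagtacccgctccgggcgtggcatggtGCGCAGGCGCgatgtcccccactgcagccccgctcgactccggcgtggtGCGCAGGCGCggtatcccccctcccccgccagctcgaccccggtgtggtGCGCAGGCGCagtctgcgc

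SDHA held the NRF1 letters 4 times, beginning 166, 117, 68 and 19 bases before the start. In COX8A the ETS letters began 18 bases before the start, and in UQCRQ 54 bases before it. Members with and without these letters were both among those called. Of the 21 members with ETS letters, 10 were lower with LY500307 in control cells, and of the 44 without them 14 were. In knockout cells 11 of the 21 with ETS letters and 9 of the 44 without them were lower with LY500307. For NRF1 letters, 4 of 15 with them and 20 of 50 without were lower in control cells, and 3 and 17 in knockout cells. For YY1 letters, 6 of 18 with them and 18 of 47 without were lower in control cells, and 6 and 14 in knockout cells. Of all genes tested, 14% were lower with LY500307 in control cells and 11.3% in knockout cells. Of the 15 members with NRF1 letters, 8 were lower and 4 higher in knockout cells with vehicle, and of the 50 without them 24 were lower and 9 higher. With ETS letters 9 of 21 were lower and 4 higher there, and without them 23 of 44 and 9. With YY1 letters 9 of 18 were lower and 4 higher, and without them 23 of 47 and 9. Of all genes tested, 33.3% were lower and 30.7% higher in that comparison. No test was run on these counts.

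Together the 82 genes took 0.754% to 0.845% of gene counts in a library. Their summed level was 7513 and 7252 CPM in knockout cells with LY500307, 7974 and 7941 CPM in knockout cells with vehicle, 7811 and 7866 CPM in control cells with LY500307, and 8505 and 8778 CPM in control cells with vehicle. Control cells with vehicle were highest and knockout cells with LY500307 lowest, and none of the 4 groups overlapped. Complex IV followed that order, with 1238 and 1192 CPM in knockout cells with LY500307, 1371 and 1335 CPM in knockout cells with vehicle, 1358 and 1376 CPM in control cells with LY500307, and 1551 and 1613 CPM in control cells with vehicle. Vehicle-treated knockout cells and LY500307-treated control cells overlapped there. Complex II divided by cell population instead, with 279 to 292 CPM over the 4 knockout libraries, against 324 to 333 CPM over the 4 control libraries. Sums are weighted towards the members with most counts, and no test was run on them.

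Complex IV exists in forms that differ by tissue, and only the common forms were found in number. COX4I1, the common isoform of the largest nuclear subunit, stood at 272 and 277 CPM in knockout cells with LY500307, 320 and 306 CPM in knockout cells with vehicle, 287 and 289 CPM in control cells with LY500307, and 331 and 343 CPM in control cells with vehicle. Its lung isoform COX4I2 had 0 counts in all 8 libraries. The heart and muscle isoforms COX6A2 and COX7A1 and the testis isoform COX7B2 also had 0 counts, as did the read-through genes NDUFC2-KCTD14 and ATP5J2-PTCD1. A count of 0 over the 8 libraries allows up to 0.0141 CPM, which covers counting error only. The testis isoforms COX8C and COX6B2 had 3 and 15 counts, and ATP5L2, a copy of ATP5L, had 5. NDUFA4L2, the hypoxia-inducible relative of NDUFA4, had 113 counts, or 39 in knockout cells with LY500307, 33 in knockout cells with vehicle, 23 in control cells with LY500307 and 18 in control cells with vehicle. Its log2 fold change in the knockout was 0.79 with LY500307 (SE 0.48, adjusted p = 0.146) and 0.64 with vehicle (SE 0.52, adjusted p = 0.285). NDUFA4L2 and COX6B2, with means of 14.1 and 1.88 counts, were the nearest below the minimum, and ATP5E, ATP5S and NDUFA3, with means of 40.0, 341 and 410 counts, were the nearest above it. Of these, NDUFA4L2 and ATP5E were close to it and the others far from it.

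The first comparison set knockout cells against control cells under each treatment. In vehicle-treated cells 57 of the 82 members were called (69.5%), 17 higher and 40 lower. A gene was called where edgeR's quasi-likelihood test gave a Benjamini-Hochberg adjusted p below 0.05 over the 13498 genes tested. All 82 members passed the filter on low counts. Of all genes tested, 64% were called, 30.7% higher and 33.3% lower, so the share of members called was near the background while the share lower, 48.8%, was above it. The members' median log2 fold change was -0.12, against -0.01 for all genes tested. Under LY500307, 53 members were called, 18 higher and 35 lower (42.7%), beside 66.2% of all genes, 32.6% higher and 33.6% lower. The median of the members was -0.09 there, against -0.01 for all genes. These backgrounds are not matched for coding length, and genes with short coding sequences fell more often. With vehicle, 41.5% of all genes of at most 300 coding bases were lower, and 32.3% of those above 1000. With the median of each length class removed, 19 members were higher and 32 lower with vehicle, and 22 and 28 with LY500307. The members' medians were then -0.04 under each treatment. The part of length in the knockout calls was not tested.

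**Figure D1:**
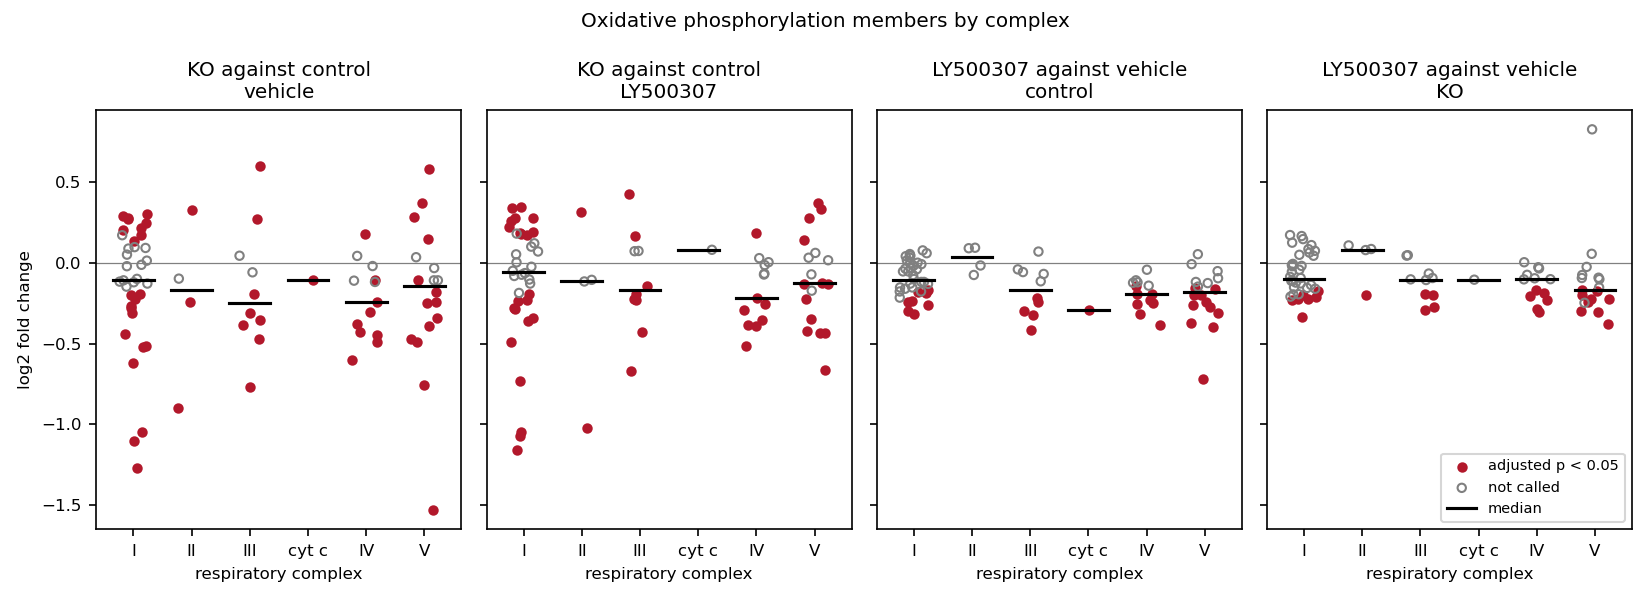
Log2 fold change of each member (points, jittered sideways) by respiratory complex in 4 comparisons, with called members filled, uncalled members open and black bars for the median of each complex. Knockout comparisons spread to both sides of 0. The lowest point, -1.53 with vehicle, is ATP5E, which had few counts and whose change was -0.16 when summed with its pseudogene ATP5EP2. For LY500307 against vehicle every called member lies below 0 in the main fit with TMM scaling, though not with library totals alone.

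Calls in the knockout pointed the same way under both treatments, which share no library. Of the members lower with vehicle, 35 were also lower with LY500307 (87.5% of the vehicle calls and 100% of the LY500307 calls). Of the members higher with vehicle, 15 were also higher with LY500307 (88.2% and 83.3%). No member was called in opposite directions. The same overlap was not counted over all genes tested, of which 64% were called with vehicle and 66.2% with LY500307. It is therefore not shown to be particular to the members. By complex, 13 of 36 genes of complex I were lower and 9 higher with vehicle, 2 of 4 lower and 1 higher in complex II, 6 of 10 lower and 2 higher in complex III, 8 of 13 lower and 1 higher in complex IV, and 10 of 18 lower and 4 higher in complex V.

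In complex I the largest falls of the knockout were in accessory subunits and in 1 core subunit of the NADH-oxidising tip. NDUFV2, an iron-sulphur core subunit of that tip, had 31.7 and 32.8 CPM in vehicle-treated knockout cells, against 74.8 and 81.1 CPM in vehicle-treated control cells, a log2 fold change of -1.27 (SE 0.07, adjusted p = 1.79e-17). With LY500307 it had 38.1 and 33.3 CPM in knockout cells, against 75.3 and 74.8 CPM in control cells. NDUFS6, an accessory subunit of the same part, had 32.2 and 31.2 CPM in vehicle-treated knockout cells, against 67.3 and 68.9 CPM in control cells, a change of -1.10 (SE 0.07, adjusted p = 4.36e-16). The libraries of these genes did not overlap between knockout and control cells under either treatment. NDUFB10, of the membrane arm, had 42.6 and 42.5 CPM in vehicle-treated knockout cells, against 90.4 and 86.0 CPM in control cells, a change of -1.05 (SE 0.06, adjusted p = 1.22e-16). Under LY500307 the changes of NDUFS6 and NDUFB10 were -1.16 and -1.05.

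Further accessory subunits of complex I fell less. NDUFB9, of the membrane arm, changed by -0.62 with vehicle (SE 0.06, adjusted p = 1.41e-11) and -0.34 with LY500307. NDUFA3 changed by -0.52 with vehicle and -0.73 with LY500307, and NDUFA12 by -0.51 and -0.49. Among the 29 accessory subunits, 11 were lower and 9 higher with vehicle. Rises were smaller than the largest falls. NDUFS5, of the membrane arm, had 117 and 106 CPM in vehicle-treated knockout cells, against 90.2 and 90.4 CPM in control cells, a change of 0.30 (SE 0.06, adjusted p = 2.05e-05). NDUFA11, NDUFB11 and NDUFA13 rose by 0.29, 0.28 and 0.27 with vehicle, and NDUFA8 by 0.34 and NDUFA10 by 0.28 with LY500307.

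The 7 core subunits of complex I, which carry the electron path and the NADH site, were mostly uncalled. NDUFV2 and NDUFS1 were lower under both treatments and the other 5 were called in neither knockout comparison. NDUFS1, the largest iron-sulphur subunit, had 129 and 129 CPM in vehicle-treated knockout cells, against 150 and 146 CPM in control cells, a change of -0.20 (SE 0.05, adjusted p = 0.000846).

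Complex II, the succinate dehydrogenase of the citric acid cycle, changed in opposite ways in its catalytic subunits. SDHA, which binds flavin and succinate, had 62.7 and 66.7 CPM in vehicle-treated knockout cells, against 124 and 118 CPM in control cells, a change of -0.90 (SE 0.06, adjusted p = 1e-15). Under LY500307 it had 57.6 and 55.3 CPM in knockout cells, against 115 and 114 CPM in control cells, a change of -1.02. SDHB, the iron-sulphur subunit, had 113 and 111 CPM in vehicle-treated knockout cells, against 86.0 and 92.8 CPM in control cells, a change of 0.32 (SE 0.06, adjusted p = 4.96e-06). It changed by 0.31 under LY500307. All knockout libraries thus lay below the control libraries for SDHA and above them for SDHB. The membrane anchor SDHC was lower with vehicle (-0.24, adjusted p = 0.00366) and uncalled with LY500307 (-0.12, adjusted p = 0.141), and SDHD was called in neither.

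**Figure D2:**
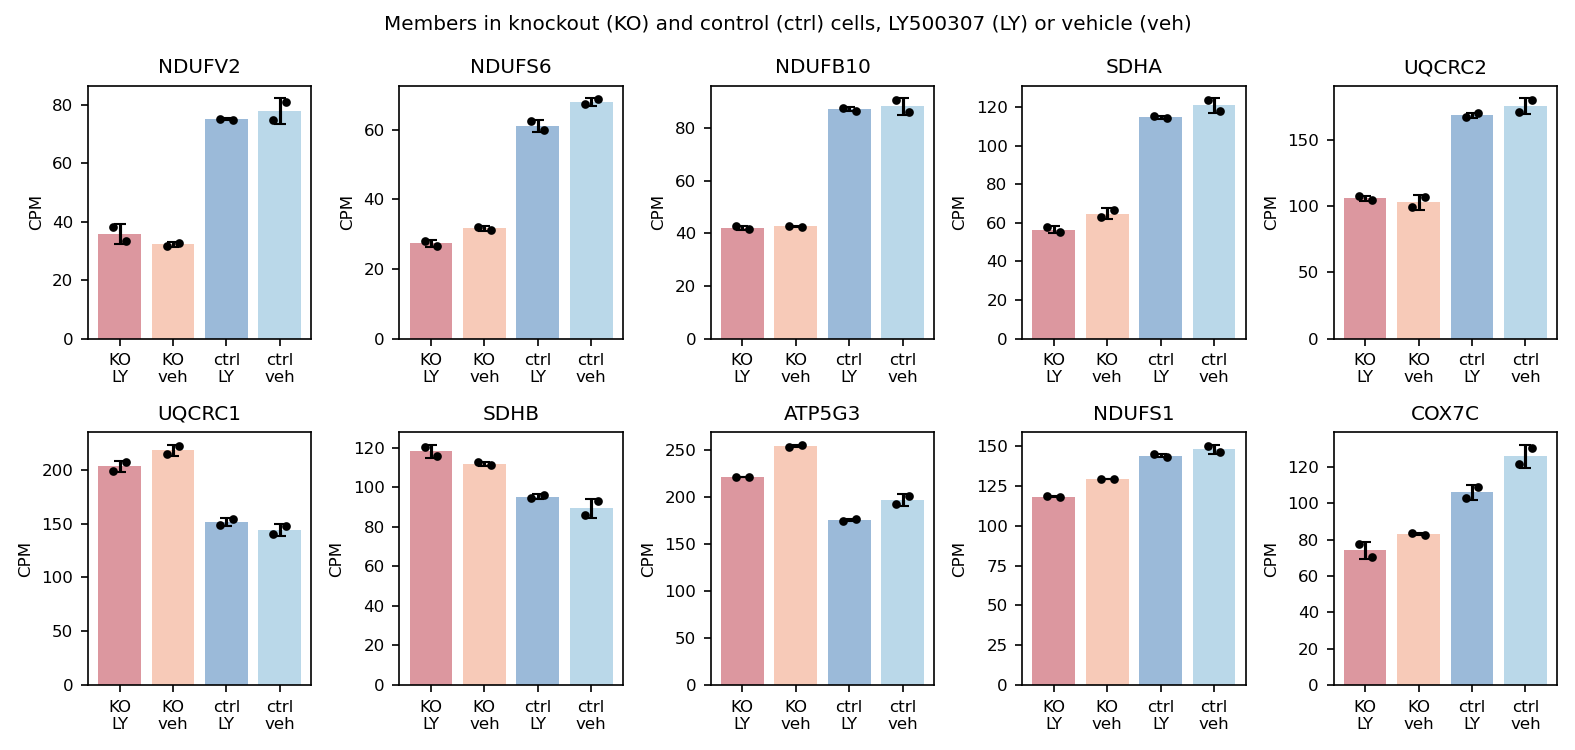
CPM of 10 members in each library (points), with bars for group means and error bars for the SD of 2 libraries, knockout groups left of control groups. NDUFV2, NDUFS6, NDUFB10, SDHA, UQCRC2, NDUFS1 and COX7C are lower in all 4 knockout libraries than in any control library, and UQCRC1, SDHB and ATP5G3 are higher.

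Complex III showed a similar division between its paired core proteins, which hold the complex together on the matrix side. UQCRC1 had 214 and 222 CPM in vehicle-treated knockout cells, against 141 and 148 CPM in control cells, a change of 0.60 (SE 0.05, adjusted p = 7.94e-13). Its partner UQCRC2 had 98.8 and 106 CPM in vehicle-treated knockout cells, against 171 and 180 CPM in control cells, a change of -0.77 (SE 0.05, adjusted p = 4.45e-15). Neither gene overlapped between knockout and control libraries under either treatment, with changes of 0.42 and -0.67 under LY500307. Among the catalytic subunits, the Rieske protein gene UQCRFS1 changed by -0.31 with vehicle and -0.22 with LY500307. CYC1, cytochrome c1, changed by -0.19 with vehicle (adjusted p = 0.00272) and -0.14 with LY500307 (adjusted p = 0.0209). The CYC1 calls were lost without control vehicle replicate 2 (-0.12, adjusted p = 0.114), without knockout vehicle replicate 1 (-0.13, adjusted p = 0.103), without control LY500307 replicate 2 (adjusted p = 0.133) and without knockout LY500307 replicate 2 (adjusted p = 0.181).

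Of the 5 small subunits of complex III, UQCRB, UQCRQ and UQCR10 were lower in knockout cells under both treatments, with changes of -0.39, -0.47 and -0.35 with vehicle. UQCRH, the hinge protein next to cytochrome c1, rose by 0.27 with vehicle and changed by 0.07 with LY500307 (adjusted p = 0.285). With the counts of its copy UQCRHL added, the changes were 0.16 (adjusted p = 0.00695) and 0.11 (adjusted p = 0.0546). CYCS, the electron carrier between complexes III and IV, had 209 and 204 CPM in vehicle-treated knockout cells, against 224 and 221 CPM in control cells. Its change of -0.11 (SE 0.05, adjusted p = 0.0473) was lost without any 1 of the 4 vehicle libraries, with adjusted p of 0.0731 to 0.203. That call was also lost without either knockout LY500307 library, at an adjusted p of 0.0521 and 0.052. With LY500307 CYCS changed by 0.08 in the knockout (adjusted p = 0.146).

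Of the 11 subunits of complex IV, 7 fell in the knockout with vehicle and 6 with LY500307, and the others were not called. COX7C, a small subunit of the membrane part, had 83.5 and 82.8 CPM in vehicle-treated knockout cells, against 121 and 131 CPM in control cells, a change of -0.60 (SE 0.06, adjusted p = 5.01e-11). COX8A, COX6C, COX7A2 and COX6B1 changed by -0.31, -0.49, -0.45 and -0.24 with vehicle and by -0.22, -0.39, -0.29 and -0.36 with LY500307. None of these overlapped between knockout and control libraries under vehicle. COX4I1 changed by -0.11 with vehicle (adjusted p = 0.0309), a call lost without control vehicle replicate 2 (adjusted p = 0.211) or knockout vehicle replicate 2 (adjusted p = 0.238). COX5A, COX6A1 and NDUFA4 were called in none of the comparisons. COX7A2L, which joins complexes III and IV in supercomplexes, was counted apart from these 11. It was the only member placed in complex IV that rose, by 0.18 with vehicle and 0.19 with LY500307.

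Complex V, the ATP synthase, changed in opposite ways even among genes for the same protein. ATP5G1, ATP5G2 and ATP5G3 encode the same mature subunit c, which forms the rotating ring. ATP5G1 had 50.9 and 52.6 CPM in vehicle-treated knockout cells, against 81.7 and 93.0 CPM in control cells, a change of -0.76 (SE 0.07, adjusted p = 3e-12). ATP5G2 had 169 and 181 CPM in vehicle-treated knockout cells, against 205 and 210 CPM in control cells, a change of -0.24 (SE 0.05, adjusted p = 4.75e-05). ATP5G3 had 253 and 255 CPM in vehicle-treated knockout cells, against 192 and 201 CPM in control cells, a change of 0.37 (SE 0.05, adjusted p = 1.11e-08). ATP5G1 and ATP5G2 thus lay lower and ATP5G3 higher in both knockout libraries. Under LY500307 the 3 genes changed by -0.67, -0.13 and 0.33. The ATP5G2 call under LY500307 was lost without control LY500307 replicate 2 (adjusted p = 0.0697) or knockout LY500307 replicate 2 (adjusted p = 0.0581).

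In the F1 head of complex V, the catalytic subunit beta gene ATP5B had 986 and 1031 CPM in vehicle-treated knockout cells, against 1073 and 1100 CPM in control cells. This was a change of -0.11 (SE 0.04, adjusted p = 0.0148) that was lost without control vehicle replicate 2 (adjusted p = 0.12) or knockout vehicle replicate 1 (adjusted p = 0.173). With LY500307 ATP5B changed by -0.13 (adjusted p = 0.00418), lost without control LY500307 replicate 2 (adjusted p = 0.0549). ATP5A1 and ATP5C1, subunits alpha and gamma, were called in none of the comparisons. Of the 4 peripheral stalk genes, which hold the head still, ATP5H, ATP5J and ATP5O were lower under both treatments, and ATP5F1, subunit b, rose by 0.28 under each. ATP5S, which encodes a factor outside the enzyme proper, rose by 0.58 with vehicle and 0.37 with LY500307. Without control LY500307 replicate 2 or knockout LY500307 replicate 1, the ATP5S call under LY500307 was lost (adjusted p = 0.0793 and 0.0626).

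The members' changes in the knockout moved with the chromosome arm on which they lie. Positions are those of a GENCODE annotation on GRCh37, the build of the counts (hg19). NDUFV2 lies on 18p (chromosome 18, 9102628 to 9134343), where the median of 47 genes tested was -0.92 with vehicle. NDUFS6 (chromosome 5, 1801521 to 1816162) and SDHA (chromosome 5, 218418 to 257197) lie on 5p, where the median of 101 genes was -0.78. NDUFB10 (chromosome 16, 2009539 to 2011976) and UQCRC2 (chromosome 16, 21964609 to 21994981) lie on 16p, where the median of 288 genes was -0.66. These 5 genes are all the members on those arms, and they hold the 5 largest falls with vehicle among members of at least 5 CPM. On 8q, with a median of -0.36, 4 of 4 members were lower. UQCRC1 (chromosome 3, 48636435 to 48648409) lies on 3p, SDHB (chromosome 1, 17345159 to 17380527) on 1p and ATP5G3 (chromosome 2, 176040986 to 176046438) on 2q, with arm medians of 0.31, 0.28 and 0.33.

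**Figure D3:**
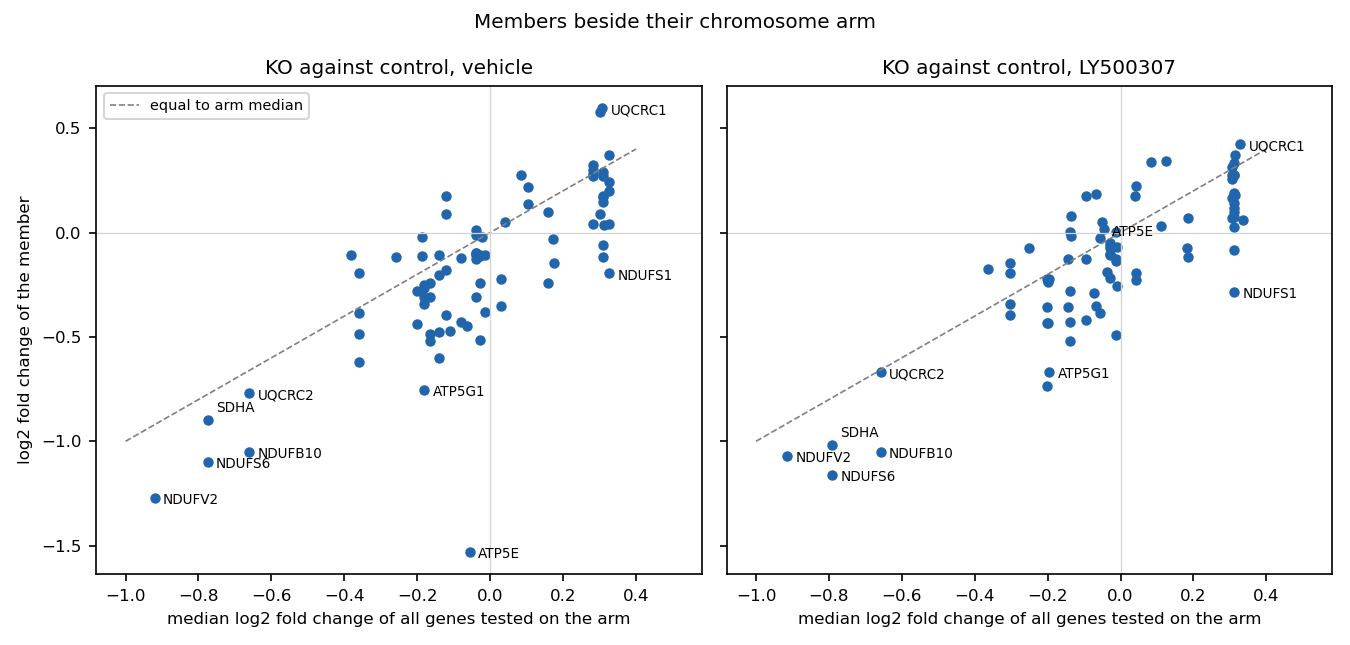
Log2 fold change of each member in the knockout against the median log2 fold change of all genes tested on its chromosome arm, with vehicle (left) and LY500307 (right). The dashed line marks equality, and members on 18p, 5p and 16p lie at the lower left while NDUFS1 lies below its arm.

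Over the 82 members and 37 arms, a member's change and its arm's median were correlated with Pearson's r of 0.77 and Spearman's rho of 0.72 with vehicle, and 0.82 and 0.74 with LY500307. This is a description across genes, which share libraries and arms. The medians include the members' own values. With each arm's median removed, 40 members were called with vehicle (9 higher and 31 lower), and 27 of the 57 original calls stood in the same direction. With LY500307, 44 were called (9 higher and 35 lower), and 30 of 53 stood. NDUFV2, NDUFS6 and NDUFB10 remained lower with vehicle, at -0.35, -0.33 and -0.39 (adjusted p = 5.84e-05, 9.99e-05 and 1.89e-06). SDHA and UQCRC2 did not pass at -0.12 and -0.11 (adjusted p = 0.0625 and 0.0674), nor did SDHB and ATP5G3, each at 0.04. UQCRC1 remained higher at 0.29 with vehicle and did not pass with LY500307 (0.10, adjusted p = 0.0853). NDUFS1 lies on 2q (chromosome 2, 206979541 to 207024233) and changed by -0.52 with vehicle and -0.60 with LY500307 after removal. ATP5G1, COX7C, NDUFA3 and NDUFA12 also remained lower with vehicle, at -0.57, -0.46, -0.35 and -0.49. CYC1, on 8q, turned to 0.17, and ATP5D, subunit delta of the F1 head, to -0.16. On 8q, COX6C and UQCRB did not pass after removal (-0.13 and -0.03, adjusted p = 0.106 and 0.707). The cause of the pattern over arms was not tested.

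The next comparison set LY500307 against vehicle in each cell population. In control cells 33 members were called (40.2%), all of them lower (with libraries scaled by their totals alone, 21, of which 3 were higher and 18 lower), beside 26.3% of all genes tested, 12.3% higher and 14% lower. The members' median was -0.14, against 0.01 for all genes. In knockout cells 27 members were called (32.9%), all lower (with totals alone, 20, of which 6 were higher and 14 lower), beside 20.4% of all genes, 9.16% higher and 11.3% lower. Their median was -0.11, against 0.01 for all genes. No member was higher in control cells by the main edgeR fit or by DESeq2, nor in the main fit at an unadjusted p below 0.05. In knockout cells no member was higher by either of these fits. At an unadjusted p below 0.05 in the main fit, 3 were: NDUFA8, NDUFS4 and ATP5E. Other edgeR fits called some members higher in knockout cells, 2 with a replicate block and 1 with coding length medians removed. In control cells 57 members (69.5%) had both LY500307 libraries below both vehicle libraries, beside 31% of all genes tested. In knockout cells 45 members (54.9%) did, beside 27.8% of all genes. The counts depended on single libraries. For control cells they stood at 15 without control vehicle replicate 2, at 19 without control LY500307 replicate 1 and at 21 without control LY500307 replicate 2. In knockout cells they stood at 13 without knockout vehicle replicate 1, at 18 without knockout vehicle replicate 2 and at 15 without knockout LY500307 replicate 2.

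Complexes III, IV and V carried most of the falls with LY500307. In control cells 8 of 36 genes of complex I were lower (22.2%), 0 of 4 of complex II, 5 of 10 of complex III, 8 of 13 of complex IV and 11 of 18 of complex V, as was cytochrome c. In knockout cells the numbers were 7 of 36, 1 of 4, 4 of 10, 6 of 13 and 9 of 18. Of the members lower in control cells, 21 were also lower in knockout cells, which are 63.6% of the control calls and 77.8% of the knockout calls. This overlap was not counted over all genes either. No core subunit of complex I and no core or catalytic subunit of complex III was called in control cells. In knockout cells NDUFS7 was the 1 such gene called, at -0.22. These core and catalytic genes have coding lengths of at least 630 bases, and shorter genes as a whole fell more often with LY500307, as given below.

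Complex IV held several of the larger falls. COX8A, a small membrane subunit, had 194 and 203 CPM in control cells with LY500307, against 237 and 257 CPM in control cells with vehicle, a change of -0.32 (SE 0.05, adjusted p = 1.42e-05). In knockout cells it had 177 and 164 CPM with LY500307, against 202 and 197 CPM with vehicle, a change of -0.23 (SE 0.05, adjusted p = 0.00112). The libraries did not overlap in either population. COX6C had 73.8 and 65.9 CPM in control cells with LY500307, against 89.2 and 93.1 CPM with vehicle, a change of -0.38 (SE 0.07, adjusted p = 6.99e-05). In knockout cells COX6C changed by -0.29 (adjusted p = 0.00299), a call lost without knockout vehicle replicate 1 (-0.17, adjusted p = 0.168). COX4I1 was lower by -0.23 in control cells and -0.19 in knockout cells. COX7A2 changed by -0.26 in control cells and by -0.10 in knockout cells (adjusted p = 0.272), and COX6B1 by -0.19 and -0.31. The COX6B1 call in control cells was lost without control vehicle replicate 2 (adjusted p = 0.178) and without either control LY500307 library (adjusted p = 0.0924 and 0.067).

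**Figure D4:**
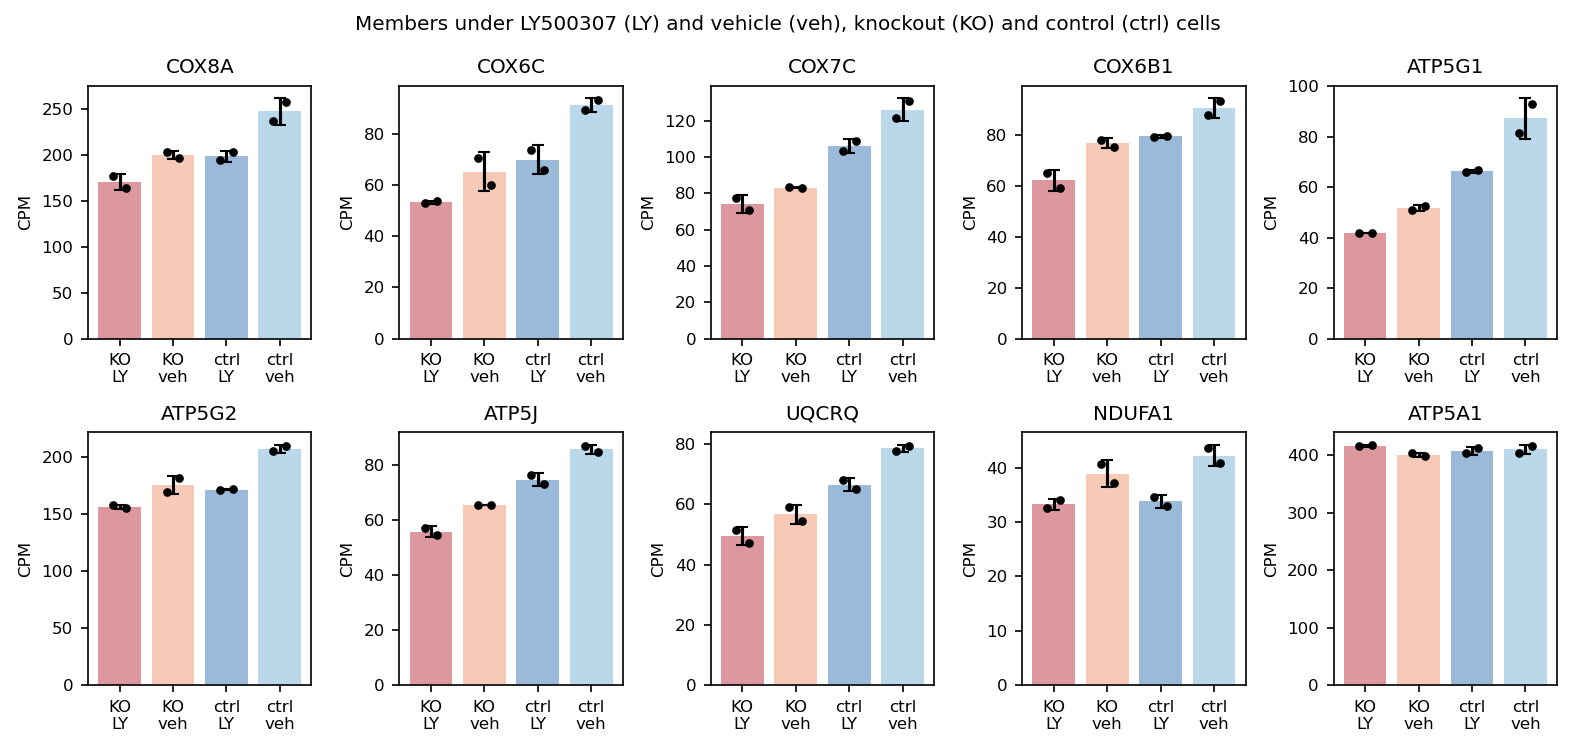
CPM of 10 members in each library (points), with bars for group means and error bars for the SD of 2 libraries, LY500307 left of vehicle within each cell population. The first 9 genes are lower with LY500307 in both populations, and ATP5A1 is close in all groups.

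All 6 genes of the membrane part of complex V were lower in control cells with LY500307, and 5 of them in knockout cells. ATP5G1 had 65.9 and 66.8 CPM in control cells with LY500307, against 81.7 and 93.0 CPM with vehicle, a change of -0.40 (SE 0.06, adjusted p = 1.84e-05). In knockout cells it had 41.9 and 41.7 CPM with LY500307, against 50.9 and 52.6 CPM with vehicle, a change of -0.31 (SE 0.07, adjusted p = 0.00113). The other genes for subunit c were lower too, ATP5G2 by -0.27 and ATP5G3 by -0.17 in control cells. ATP5G1 and ATP5G2 thus moved the same way with LY500307 as in the knockout, and ATP5G3 the opposite way. ATP5I, subunit e, changed by -0.37 in control cells, and its call was lost without control LY500307 replicate 2 (-0.30, adjusted p = 0.0697). The ATP5G3 call in control cells was lost without control vehicle replicate 2 (adjusted p = 0.117) or control LY500307 replicate 1 (adjusted p = 0.0611). ATP5B was lower by -0.15 in control cells and -0.17 in knockout cells. In control cells its call was lost without control vehicle replicate 2 (adjusted p = 0.0529) or control LY500307 replicate 1 (adjusted p = 0.0561).

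In complex III, 4 of 5 small subunits were lower with LY500307 in control cells and 3 of 5 in knockout cells, and none of the 4 core and catalytic proteins was called in either. The small subunits have coding lengths of 168 to 333 bases, and the core and catalytic ones of 822 to 1440 bases. The part of length in this division was not tested. UQCRB, which lies near the ubiquinone site, had 137 and 134 CPM in control cells with LY500307, against 165 and 168 CPM with vehicle, a change of -0.30 (SE 0.06, adjusted p = 0.000197). UQCR11 changed by -0.32 in control cells, a call lost without control vehicle replicate 2 (-0.21, adjusted p = 0.0687), and UQCRH by -0.27 in knockout cells. UQCRC1 and UQCRC2 changed by 0.07 and -0.06 in control cells (adjusted p = 0.325 and 0.428). CYCS had 189 and 174 CPM in control cells with LY500307, against 224 and 221 CPM with vehicle, a change of -0.29 (SE 0.05, adjusted p = 2.59e-05). In knockout cells CYCS changed by -0.11 (adjusted p = 0.125), and the difference between the populations, 0.19, did not pass the interaction test (adjusted p = 0.164).

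Of 29 accessory subunits of complex I, 8 were lower with LY500307 in control cells and 6 in knockout cells, and the others were not called. Of 7 core subunits, with coding lengths of 630 to 2181 bases, 0 were called in control cells, and NDUFS7 alone was lower in knockout cells. NDUFA1, a small subunit needed for assembly of the complex, had 34.7 and 33.0 CPM in control cells with LY500307, against 43.7 and 40.8 CPM with vehicle, a change of -0.32 (SE 0.07, adjusted p = 0.00167). In knockout cells it changed by -0.22 (adjusted p = 0.0303). NDUFB8, of the membrane arm, changed by -0.30 in control cells and -0.17 in knockout cells. NDUFA3 changed by -0.33 and NDUFB7 by -0.23 in knockout cells. The NDUFA3 call was lost without either knockout vehicle library (adjusted p = 0.0736 and 0.14) or knockout LY500307 replicate 2 (-0.20, adjusted p = 0.28). The NDUFB7 call was lost without knockout vehicle replicate 2 (adjusted p = 0.121) or knockout LY500307 replicate 2 (adjusted p = 0.0797). In complex II, SDHA was lower in knockout cells by -0.20 (adjusted p = 0.0157), and no other gene of that complex was called with LY500307.

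The members lower with LY500307 had short coding sequences. Coding length was known for 80 members, with a median of 424.5 bases, against 1428 bases over the genes tested. Among members of at most 300 bases, 14 of 21 were lower in control cells with LY500307, beside 33.8% of all genes of that length. Above 300 and up to 500 bases 12 of 26 were lower, beside 24.2% of genes. Above 500 and up to 1000 bases 4 of 22 were lower, beside 13.5%, and above 1000 bases 1 of 11, beside 13%. In knockout cells the numbers were 11 of 21, 9 of 26, 4 of 22 and 2 of 11, beside 22.6%, 18.4%, 11.3% and 10.9% of genes. Short genes as a whole were thus lower more often, and the members' medians lay below those of all genes in each length class of both populations. For the shortest class in control cells they were -0.22 for members and -0.14 for all genes. With the median of each length class removed, 19 members were called in control cells, all lower, and 20 in knockout cells, 19 of them lower. ATP5G1, COX6C, COX8A and UQCRB were among those still lower in control cells. Among members named here, COX7A2, COX6B1, COX7C, UQCRQ, NDUFA1, ATP5I, ATP5J, ATP5J2, ATP5G3 and UQCR11 in control cells then missed the threshold. So did COX8A (adjusted p = 0.0534), ATP5G2, ATP5J2, COX7C, UQCRQ, NDUFA3 and NDUFB11 in knockout cells. The cause of the pattern over lengths was not tested.

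**Figure D5:**
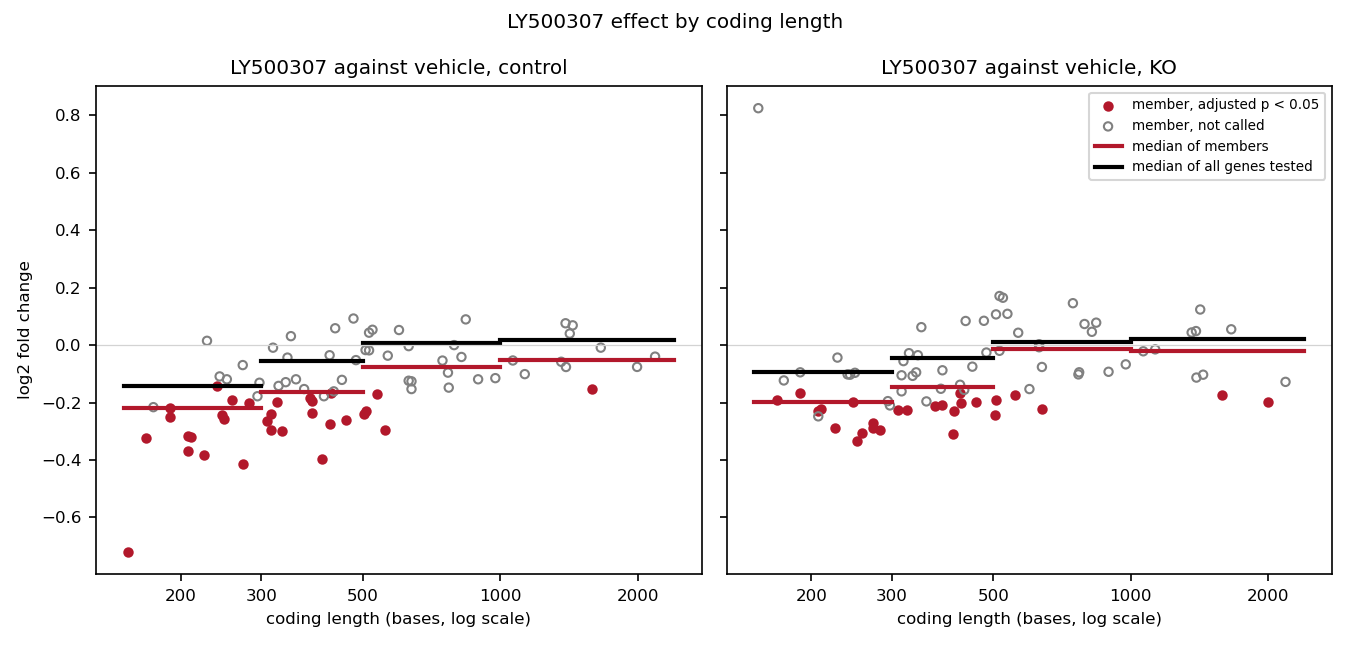
Log2 fold change with LY500307 of 80 members against coding length (log axis) in control cells (left) and knockout cells (right), with bars for the median of members (red) and of all genes tested (black) in 4 length classes. Both medians are lowest at the shortest length, and the red bars lie below the black bars in every class.

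Setting the 4 comparisons side by side, 10 members were lower in all of them: ATP5B, ATP5G1, ATP5G2, ATP5J and ATP5J2 of complex V, COX6B1, COX6C, COX7C and COX8A of complex IV, and UQCRQ of complex III. The share of all genes tested with this pattern was not counted. All 10 except ATP5G1 lost at least 1 of these calls under another setting. With coding length medians removed, COX7C and UQCRQ missed the threshold with LY500307 in both populations (adjusted p = 0.179 to 0.424). With arm medians removed, COX6C missed it in the knockout (adjusted p = 0.106 with vehicle and 0.277 with LY500307). UQCRQ, a small subunit, had 51.6 and 47.3 CPM in knockout cells with LY500307, 58.9 and 54.5 CPM in knockout cells with vehicle, 68.0 and 65.0 CPM in control cells with LY500307, and 77.8 and 79.5 CPM in control cells with vehicle. The 4 groups did not overlap. The UQCRQ calls with LY500307, -0.24 in control cells and -0.20 in knockout cells, were lost without control LY500307 replicate 2 (adjusted p = 0.0619), knockout vehicle replicate 1 (adjusted p = 0.259) or knockout LY500307 replicate 2 (adjusted p = 0.235). ATP5D, ATP5G3 and NDUFB11 were higher in the knockout and lower with LY500307 in all 4. The ATP5D call in the knockout was lost without control vehicle replicate 1 (0.07, adjusted p = 0.422) or either vehicle-treated knockout library (adjusted p = 0.0531 and 0.158). Under LY500307 it was lost without either control library (adjusted p = 0.126 and 0.0885) or knockout replicate 2 (0.10, adjusted p = 0.235). The 2 kinds of comparison share libraries, so these counts describe the genes and do not support each other. Another 15 genes, among them ATP5A1, ATP5C1, NDUFV1 and SDHD, were called in none of the 4, a pattern also not counted over all genes.

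The last comparison asked whether the response to LY500307 differed between knockout and control cells. By the interaction test 1 of the 82 members was called, beside 1.62% of all genes tested (0.526% higher and 1.09% lower), and 6 were at an unadjusted p below 0.05. The gene called was ATP5E, subunit epsilon of the F1 head. It had 36 and 45 counts in knockout cells with LY500307, 20 and 25 counts in knockout cells with vehicle, 37 and 45 counts in control cells with LY500307, and 56 and 56 counts in control cells with vehicle. Vehicle-treated knockout cells were lowest and vehicle-treated control cells highest, without overlap. Its log2 fold change with LY500307 was 0.83 in knockout cells (SE 0.31, adjusted p = 0.0587) and -0.72 in control cells (SE 0.27, adjusted p = 0.0424), a difference of 1.54 (SE 0.41, adjusted p = 0.0443). That call was lost by DESeq2 and without any 1 of the 8 libraries, with adjusted p of 0.0643 to 0.176. The pseudogene ATP5EP2 drew most of the reads of the pair, and with both counts summed the difference was -0.00141 (adjusted p = 1). The summed level was 33.9 and 24.3 CPM in knockout cells with LY500307, 38.8 and 34.6 CPM in knockout cells with vehicle, 33.1 and 32.0 CPM in control cells with LY500307, and 40.1 and 41.9 CPM in control cells with vehicle. It was lower with LY500307 by -0.34 in each population (adjusted p = 0.0104 and 0.00807 in knockout and control cells). In the knockout with vehicle ATP5E alone changed by -1.53 (SE 0.30, adjusted p = 3.14e-05). The sum changed by -0.16 there and was not called (SE 0.09, adjusted p = 0.128). SDHA and CYCS also have near-identical copies in the genome, and reads of 50 bases can be split or lost between copies, so the levels of such genes are uncertain.

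Genes that take part in building the complexes were followed as lists, against 33.3% of all genes lower and 30.7% higher in knockout cells with vehicle. The changes of list genes, here and below, were not set beside the medians of their chromosome arms. Of 15 complex I assembly genes tested, 6 were lower (40.0%) and 2 higher (13.3%). NDUFAB1, the mitochondrial acyl carrier protein, which is also a complex I subunit but has a symbol outside the series taken here, had 43.7 and 41.4 CPM in vehicle-treated knockout cells, against 90.7 and 88.1 CPM in control cells, a change of -1.07 (SE 0.06, adjusted p = 9.02e-17). ACAD9, an acyl-CoA dehydrogenase that also assembles complex I, changed by -0.49 with vehicle and -0.64 with LY500307 in the knockout, and NDUFAF3 by -0.68 and -0.86. Of 10 genes for complexes II and III, 4 were lower and 3 higher with vehicle, with C11orf83, an assembly factor of complex III also named UQCC3, at -0.95. For complex IV 7 of 24 were lower and 4 higher, with CCDC56 at -0.80 and HIGD1A at 0.54, and SCO1, a copper chaperone, at -0.43. For complex V 2 of 4 were lower and 1 higher, with TMEM70 at -0.60 (SE 0.07, adjusted p = 3.95e-09) and ATPIF1, the inhibitor of the enzyme, at 0.28. With LY500307, 2 of 15, 2 of 10, 4 of 24 and 1 of 4 were lower in control cells, beside 14% of all genes.

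The enzymes that feed the chain held members higher and members lower in the knockout. Of 18 genes of the citric acid cycle and pyruvate dehydrogenase, 7 were lower (38.9%) and 4 higher (22.2%) in the knockout under each treatment, near the shares of all genes (33.3% and 30.7% with vehicle, 33.6% and 32.6% with LY500307). IDH2, the NADP-dependent mitochondrial isocitrate dehydrogenase, had 24.1 and 24.7 CPM in vehicle-treated knockout cells, against 52.8 and 57.4 CPM in control cells, a change of -1.17 (SE 0.08, adjusted p = 1.25e-15). IDH3G, a subunit of the NAD-dependent enzyme, had 78.8 and 86.5 CPM in vehicle-treated knockout cells, against 50.6 and 47.5 CPM in control cells, a change of 0.75 (SE 0.06, adjusted p = 2.63e-12). SUCLG2 of succinyl-CoA ligase changed by -0.98 and OGDH of the oxoglutarate dehydrogenase complex by -0.47. With LY500307, 3 of the 18 were lower in control cells, and MDH2, malate dehydrogenase, was lower by -0.21 in control cells and -0.19 in knockout cells. Among 16 genes of ubiquinone synthesis and of other electron donors, 8 were lower and 3 higher in vehicle-treated knockout cells, with COQ7 at -0.97, SQRDL at -0.60, ETFB at -0.55 and COQ4 at 0.58.

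Nuclear regulators of respiratory genes did not move as one. Of 14 tested, 6 were higher (42.9%) and 4 lower (28.6%) in vehicle-treated knockout cells, beside 30.7% and 33.3% of all genes. NRF1 had 23.8 and 24.7 CPM in vehicle-treated knockout cells, against 31.3 and 33.8 CPM in control cells, a change of -0.42 (SE 0.08, adjusted p = 2.73e-05). With LY500307 it had 24.9 and 24.9 CPM in knockout cells, against 25.7 and 26.9 CPM in control cells (-0.08, adjusted p = 0.41). The other groups thus lay close together and vehicle-treated control cells above them. The GABP subunits moved in opposite directions, GABPA by 0.38 and GABPB1 by -0.49 with vehicle. POLRMT, the mitochondrial RNA polymerase, rose by 0.64 with vehicle and 0.41 with LY500307. PPRC1, a coactivator of NRF1, was the 1 regulator called in the interaction (0.25, SE 0.07, adjusted p = 0.0464). It was lower with LY500307 in control cells (-0.32, adjusted p = 9.61e-06) and changed by -0.06 in knockout cells (adjusted p = 0.373). The mitochondrially encoded subunits were not analysed here.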

How the data were processed

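RNA from 8 libraries of ES2 cells was sequenced as single-end reads of 50 bases. The deposited files are tables of raw counts by gene symbol. The submitters' processing notes name bcl2fastq, TopHat2 2.0.8b, HTSeq and the build hg19. Per the labels, libraries came from a stranded kit, but a guide for total RNA is named too. The sources used here do not state whether reads were counted by strand, so overlapping antisense genes cannot be told apart. Depth, gene counts per library, is given with the results.

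Counter summary entries (no feature 10.7% to 12.8% of unique reads, ambiguous 0.812% to 0.861%) were left out of library sizes. filterByExpr kept 13498 genes. One edgeR 4.0.16 quasi-likelihood model (limma 3.58.1, R 4.3.3, TMM scaling, 4 group means, 4 residual degrees of freedom) was fitted to all 8 libraries, with two-sided tests and Benjamini-Hochberg adjustment at 0.05 over all genes tested. CPM are relative to TMM-scaled library sizes. The procedure was tested on simulated data. Replicates of a group differed beyond counting noise (ratio of chi-square to its degrees of freedom 3.05 to 4.3), so all 8 libraries were kept apart. Floors and counts cover counting error only.

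Members and lists were chosen with earlier results of these data known. Named genes are the 10 strongest rises and 10 strongest falls of each comparison among called members of at least 5 CPM, the member with most CPM in each complex, listed isoform pairs, CYCS and CYC1, KDM1A, and up to 4 genes per list by smallest p. Other genes named, such as NDUFS1, UQCRQ, ATP5G2, ATP5E, SDHC, NDUFS7, ATP5H and NRF1, were chosen after their values were seen. Positions came from a GENCODE annotation on GRCh37, in which 18908 genes were found by their symbol, 2134 by an older one and 2186 not at all. Alternatives were DESeq2 1.42.0, other scalings, filters and fits, a replicate block, leaving out each library, and removal of arm medians. Removal of coding length medians, summed copies and leaving out members on 5p, 16p and 18p were chosen after seeing the data. The values of 1 member are not reported here.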

Additional observations from a re-analysis of the deposited data

Results flagged for a closer look

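ATP5E, subunit epsilon of the F1 head of complex V, was the 1 member whose change with LY500307 differed between knockout and control cells, by 1.54 on the log2 scale (adjusted p = 0.0443). It had a mean of 40.0 counts per library, the fewest of any member. Summed with its pseudogene ATP5EP2 the difference was -0.00141, and DESeq2 did not call it.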

How the results depend on the processing

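The knockout counts of 57 and 53 called members (vehicle and LY500307) stayed within 1.5 times under all settings run, with 48 to 57 and 44 to 53 when 1 library was left out. These are totals, not the same genes throughout. With arm medians removed, 27 of the 57 calls with vehicle and 30 of the 53 with LY500307 stood in the same direction. The totals for LY500307 against vehicle were less stable. In control cells 33 called members became 21 with library totals and 19 with coding length medians removed, and ranged from 15 to 33 without 1 library. In knockout cells 27 ranged from 13 to 32 without 1 library. The interaction count of 1 became 0 with DESeq2, 3 with the replicate block and 0 among members of at least 100 counts, and 0 to 1 without 1 library. With coding length medians removed, 22 higher and 28 lower members were called in the knockout under LY500307. Removal of arm medians turned the direction of 9 called members with vehicle: NDUFA10 (-0.0842), NDUFB3 (-0.127), NDUFB7 (-0.138), NDUFA11 (-0.02), UQCRH (-0.00963), NDUFA13 (-0.0406), CYCS (0.0773), CYC1 (0.167) and ATP5D (-0.164). Under LY500307 it turned that of 10: NDUFA11 (-0.122), NDUFB3 (-0.129), UQCRHL (-0.139), UQCRB (0.108), ATP5F1 (-0.0292), NDUFA10 (-0.0369), NDUFA13 (-0.035), NDUFS5 (-0.0509), CYC1 (0.16) and ATP5D (-0.167). Removal of length medians turned CYCS with vehicle (0.00642). The causes were not tested. Same-numbered replicates showed little shared deviation over all genes (correlations 0.000614 to 0.07). Such correlations also carry counting noise, so they cannot exclude a pairing of samples. With the replicate block 62, 53, 39, 37 and 3 members were called in the 5 comparisons. With 2 libraries a group, a fit that leaves one out assumes that the lone sample varies like the other groups.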

Other observations

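Genes for mitochondrial ribosomal proteins, which translate the subunits encoded in mitochondrial DNA, were followed as a list. Of 76 tested, 42 were lower (55.3%) and 15 higher (19.7%) in knockout cells with vehicle (median -0.17), beside 33.3% and 30.7% of all genes. With LY500307, 28 were lower (36.8%) and 18 higher (23.7%) in knockout cells (median -0.06), beside 33.6% and 32.6% of all genes. MRPS34 had 63.8 and 57.6 CPM in vehicle-treated knockout cells, against 117 and 120 CPM in control cells, a change of -0.97 (SE 0.06, adjusted p = 8.94e-16), and MRPL12 changed by -0.83. Against vehicle, LY500307-treated control cells had 15 lower (19.7%) and 3 higher (3.95%), beside 14% and 12.3% of all genes. Knockout cells had 4 lower (5.26%) and 13 higher (17.1%), beside 11.3% and 9.16%. MRPL22 rose by 0.37 and MRPS30 by 0.28 in knockout cells, and the list's median in the interaction was 0.08. By the interaction test 0 of the 76 were called, beside 1.62% of all genes tested, so a different response of the populations was not shown for any of them.

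Of 10 genes that govern whether pyruvate enters the mitochondrion or leaves as lactate, 4 were lower and 5 higher in knockout cells with vehicle (median 0.07). These are 40% and 50% of the list, beside 33.3% and 30.7% of all genes tested. SLC16A3, a lactate exporter, had 0.891 and 1.00 CPM in vehicle-treated knockout cells, against 35.5 and 37.3 CPM in control cells, a change of -5.25 (SE 0.14, adjusted p = 5.99e-27). LDHA, which makes lactate, had 1427 and 1385 CPM in vehicle-treated knockout cells, against 2296 and 2216 CPM in control cells, a change of -0.68, and PDK1, which inhibits pyruvate dehydrogenase, changed by -0.63. PDK2, of the same family, averaged 25.6 CPM in vehicle-treated knockout cells, against 17.9 CPM in control cells (n = 2 each), a change of 0.52 (SE 0.09, adjusted p = 4.54e-06). The other rises, named after their values were seen, were in PDK4 (0.89), the lactate and pyruvate transporter SLC16A1 (0.20), and the mitochondrial pyruvate carrier genes BRP44 (0.41) and BRP44L (0.24). PDK4 had 1.96 and 2.18 CPM in control cells with LY500307, against 1.07 and 0.81 CPM with vehicle, a change of 1.13 (SE 0.29, adjusted p = 0.00419), and rose by 0.94 in knockout cells. LDHB was lower with LY500307 by -0.24 in control cells and -0.27 in knockout cells.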
